A study of Rattus norvegicus with 6 samples.

Results

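Pcp2, Car8, Gdf10, Cbln1 and Zic1 are known best as genes of the cerebellum, and they were followed here in RNA of the rat hippocampus after exercise training. The 5 genes were listed by name, and a probe of the array was taken where its deposited gene name equalled one of them, which found 1 probe for each of 4 genes among 33933 gene names and 41012 probes. Cbln1 was reached only through its RefSeq gene ID, since its probe carries the older name LOC498922, so that 5 probes stood for the 5 genes. The genes were selected on the measured log ratios and signals of all 3 comparisons, so these values are given as a description and no test was made on them.

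The male Wistar rats were 11 weeks old at the start, and sedentary controls (CONT) were placed on a resting treadmill. Mild exercise (ME) was treadmill running at 15 m/min and intense exercise (IE) at 40 m/min, for 60 min a day, 5 days a week over 6 weeks, of which 1 week in ME and 4 weeks in IE served as habituation with slight electric shocks. Some IE rats received further shocks later, and rats that refused to run were excluded, so the IE group holds rats that kept to the speed. RNA of 5 rats was pooled in each group, and the 3 pools were compared on 6 two-colour arrays, as IE vs ME and as either exercise vs CONT, with the dyes Cy3 and Cy5 swapped on the second array of each comparison. Both arrays of a swap carried 1 RNA pool per group, which makes 1 replicate a comparison, and the SD given with each mean is the spread between these 2 arrays and not between rats. The 4 arrays against CONT were on 1 slide (slide 1), and IE vs ME was hybridized on another (slide 2), which was read with another version of the scanner software, so slide, software and comparison cannot be told apart for IE vs ME.

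Purkinje cells are the output neurons of the cerebellar cortex. They receive parallel fibres from the granule cells of the cerebellum and are wrapped by processes of Bergmann glia. None of these cerebellar cell types belongs to the hippocampus, whose dentate gyrus has granule cells of its own. Pcp2 encodes a Purkinje cell protein that binds G protein alpha subunits, and Car8 encodes a carbonic anhydrase-related protein without enzyme activity that binds the inositol trisphosphate receptor Itpr1. Cbln1 is a synapse organizer secreted by granule cells, which binds neurexins. Gdf10 is a ligand of the TGF-beta superfamily made by Bergmann glia and other astrocytes, and Zic1 is a zinc finger transcription factor of the granule cell lineage that is also made in the meninges.

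Each gene rested on a single 60-mer, and every value of these genes is the hybridization of that whole probe alone. The first 30 bases of each probe are shown.
Pcp2: tgtaacagtcaattccctgcctggcttcca
Car8: agggaaaatccaaaacaattccatgcttta
Gdf10: actgaaagttaggtgtgggctgtttaaaca
Cbln1: agcggcgacaccggaaacttcctacgtgtt
Zic1: tcttccgctatatgcgccaacccatcaagc
The probes differed in base composition, with a GC content of 35% for Gdf10, 36.7% for Car8, 48.3% for Pcp2, 50.0% for Zic1 and 60.0% for Cbln1.

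In the rat genome build rn3 used by the array's files, the Pcp2 probe spans chr12:2530446-2531535 and the Car8 probe chr5:21995242-21997450 on the reverse strand. These spans of 1090 and 2209 bp are longer than the 60 bases of a probe, as for a sequence that crosses a splice junction. The probes of Gdf10 at chr16:9570483-9570542, of Cbln1 at chr19:20948106-20948165 and of Zic1 at chr8:96336889-96336948 on the reverse strand each cover 60 contiguous bases. Whether these lie in coding sequence or in a UTR was not analysed here.

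The Zic1 probe shares sequence with the array's probe of its paralog Zic2, and the best common stretch is shown with the differing bases in capitals.
Zic1: catcaagcaagagctTatctgTaaAtggat
Zic2: catcaagcaagagctCatctgCaaGtggat
Over these 30 bases 27 were identical and 3 differed. The best windows against the probes of Zic4 and Zic5 held 15 identical bases of 30. The part of Zic2 RNA in the Zic1 signal was not tested.

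A probe was called when the ratio of Cy5 to Cy3 reached 1.5 on 1 array and was no more than 0.75 on the swapped one, and both software p-values were below 0.01. This p-value compares the signals of the 2 pools on 1 array and says nothing of the spread between rats. Of all 41012 probes, 0.122% were called in ME vs CONT, 0.0293% in IE vs CONT and 0.0731% in IE vs ME. None of the 5 cerebellar marker probes was called in any of the 3 comparisons. Without the p limit it was again none, beside 0.985%, 0.666% and 1.06% of all probes. By 1 array alone, Car8 passed both limits on the ME vs CONT array with ME in Cy3, as did 1.58% of all probes, and none passed with ME in Cy5 (2.14% of all probes). No marker passed on the IE vs CONT arrays, with 1.85% of all probes passing with IE in Cy5 and 1.43% with IE in Cy3. On the IE vs ME arrays Pcp2 and Car8 passed with IE in Cy5 (7.87% of all probes) and Zic1 with IE in Cy3 (7.73% of all probes).

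In ME vs CONT, 4 of the 5 genes had a mean above 0. The highest mean was that of Car8, with log2 ratios of 0.27 on the array with ME in Cy5 and 0.81 on the array with ME in Cy3. The mean was 0.54 ± 0.38 (SD of the 2 arrays), 1.45-fold. Both arrays read the ME pool higher, but only the second array gave a software p-value under the limit (0.00042, against 0.20).

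Pcp2 gave log2 ratios of 0.41 and 0.21 in ME vs CONT, in the same order of arrays. Its mean was 0.31 ± 0.14, 1.24-fold, with software p-values of 0.049 and 0.30. Both arrays lay on the side of the ME pool, and neither reached 1.5-fold.

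Cbln1 read 0.17 and 0.20 in ME vs CONT, a mean of 0.18 ± 0.018. Its arrays differed little, while the software p-values of 0.43 and 0.36 show how small the ratio was beside the error of a spot. Zic1 read -0.071 and 0.78 (mean 0.35 ± 0.60), so that its arrays lay on opposite sides of 0. Gdf10 also had arrays of opposite sign, 0.032 and -0.26, with a mean of -0.11 ± 0.21.

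The sizes depended on the background correction. With normexp, a model-based correction, the ME vs CONT means were 0.24 for Car8, 0.20 for Pcp2, 0.080 for Zic1 and 0.074 for Cbln1, and without background subtraction 0.27, 0.23, 0.056 and 0.086.

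For scale, the middle 95% of the 28897 probes that were well above background in all 4 readings of ME vs CONT ran from -0.20 to 0.23. Well above background is a flag of the software for a signal clearly over its local background. Pcp2, Car8 and Zic1 lay above this range, and Cbln1 and Gdf10 within it. The genes were picked with these ratios in view, so their place in the range supports nothing.

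In IE vs CONT, Pcp2, Car8 and Zic1 had means near 0. Pcp2 read -0.019 and 0.058, with a mean of 0.020 ± 0.055. Car8 read -0.23 and 0.18, with a mean of -0.022 ± 0.29. Neither gene leaned the same way on both arrays.

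Zic1 read -0.12 and 0.20 in IE vs CONT, a mean of 0.041 ± 0.22, again with opposite signs. Cbln1 read 0.11 and 0.16, a mean of 0.14 ± 0.029, and was thus a little above 0 on all 4 arrays against CONT. Gdf10, the Bergmann glia ligand, read -0.075 and -0.42, with a mean of -0.25 ± 0.24. Both Gdf10 arrays favoured CONT, with software p-values of 0.71 and 0.044. Of the 4 genes well above background in all readings, only Gdf10 had a mean outside the middle 95% of bright probes (-0.20 to 0.19). The choice of genes used these ratios too, so this place supports nothing.

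In IE vs ME all 5 means were below 0, though that of Zic1 turned to 0.025 with normexp and to 0.041 without background subtraction. Pcp2 was the one with close arrays, at -0.59 with IE in Cy5 and -0.53 with IE in Cy3, a mean of -0.56 ± 0.048 and thus 0.679 times the ME level. Its software p-values were 0.0067 and 0.015. The second array stayed short of 1.5-fold and of the p limit, so Pcp2 was not called. With other background handling its mean was smaller, at -0.35 with normexp and -0.32 without background subtraction. Of the 25806 bright probes of this comparison, 0.147% had a lower mean. Pcp2 was picked with this ratio in view, so its rank supports nothing.

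Car8 and Zic1 disagreed between the arrays of IE vs ME. Car8 read -1.06 with IE in Cy5 and 0.30 with IE in Cy3, for a mean of -0.38 ± 0.96. Its software p-values were 1.9e-05 and 0.19. Zic1 read 0.61 and -1.53, for a mean of -0.46 ± 1.51. For both genes the gap between the arrays was wider than the mean itself, so the direction was not settled by the swap.

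Cbln1 read -0.023 and -0.30 in IE vs ME (mean -0.16 ± 0.20). Gdf10 read 0.012 and -0.26 (mean -0.13 ± 0.19). Both means were smaller than the spread between their arrays.

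**Figure D1:**
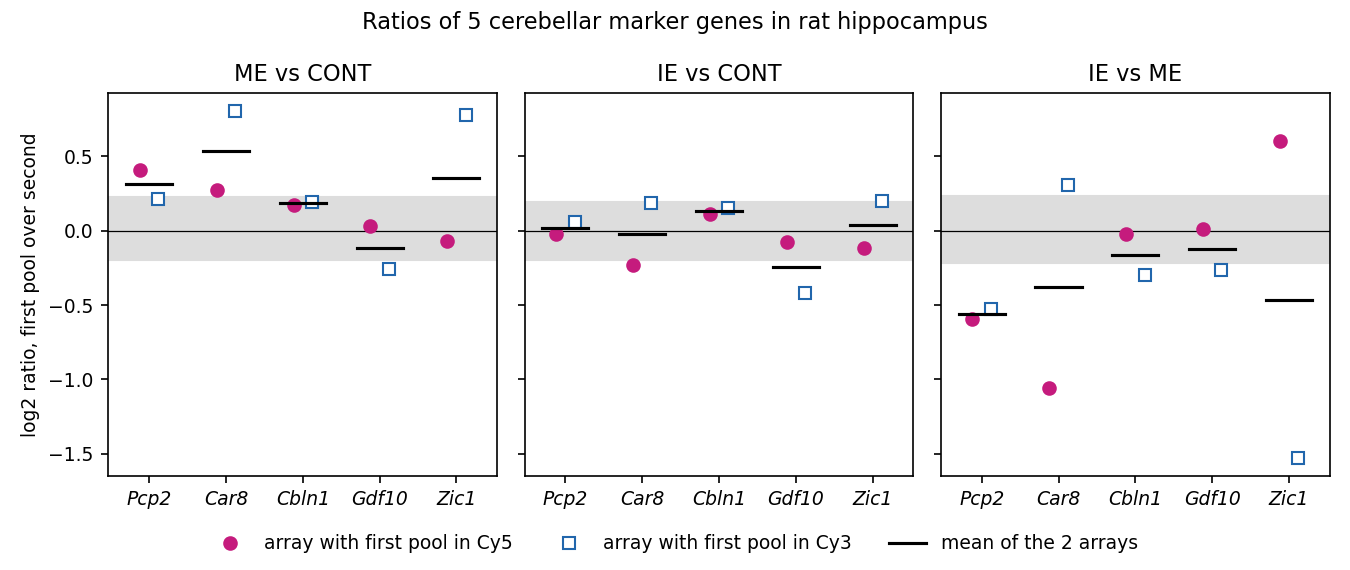
Log2 ratio of each of the 5 genes on each array, in the 3 comparisons (first pool over second). Circles are arrays with the first pool in Cy5, squares arrays with it in Cy3, black lines the mean of both, and the grey band the middle 95% of probes well above background in all readings; Pcp2 lies below the band on both IE vs ME arrays, whereas Zic1 reads 0.61 on one and -1.53 on the other.

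Counted over the genes, 3 of 5 had the same sign on both arrays in ME vs CONT (Pcp2, Car8 and Cbln1), 2 of 5 in IE vs CONT (Gdf10 and Cbln1) and 2 of 5 in IE vs ME (Pcp2 and Cbln1). Among bright probes the share with 1 sign on both arrays was 28.6%, 28.2% and 26.7%. The mean exceeded the SD between arrays for 3, 2 and 1 of the 5 genes, and for 21.2%, 20.5% and 19.4% of bright probes. Because the genes were chosen on these same ratios, the counts beside these shares are only a description. The 4 genes found by array name had a median log2 ratio of 0.33 in ME vs CONT, of -0.0012 in IE vs CONT and of -0.42 in IE vs ME. Over all probes the medians were 0, 0 and -0.0016.

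The processed signals, which the software corrects for background and dye within each array, gave the level of each gene in each pool. They are not scaled between arrays, and levels of different probes cannot be compared. ME and IE shared no array on slide 1. Orders and overlaps of the readings below therefore also carry differences between arrays and dyes. The genes were chosen with these signals in view, and the share of all probes with such orders was not worked out. The orders are therefore only a description and cannot be read as a trait of these genes. Repeat readings of a pool are not replicates of its group. Since whole tissue was measured, fewer cells of a type and less RNA per cell cannot be told apart in any of these values. On slide 1, CONT was read 4 times and ME and IE 2 times each.

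On slide 1 the Pcp2 signal was 272 and 284 in ME. It was 214 to 249 in CONT and 224 to 259 in IE. Both ME readings of this Purkinje cell gene lay above every CONT and IE reading, while CONT and IE overlapped. On slide 2 the ME readings of 189.8 and 226 again lay above the IE readings of 126 and 157.

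The Car8 signal was 104 and 116 in ME, 66.5 to 86.6 in CONT, and 72.6 and 93.2 in IE on slide 1. There too ME lay above all others, and CONT and IE overlapped. On slide 2, however, ME at 81.5 and 117 overlapped with IE at 56.3 and 101.

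Cbln1 signals on slide 1 were 94.9 and 106 in ME, above the CONT readings of 78.7 to 92.8, while IE at 85.2 and 99.6 overlapped with both. On slide 2 its ME readings of 85.6 and 102 lay above the IE readings of 82.5 and 84.2. For Gdf10 the order was another one, with CONT at 1241 to 1525 above both IE readings of 1141 and 1178, and ME at 1133 and 1292 overlapping with both. On slide 2 the Gdf10 readings of ME (1021 and 1149.7) and IE (958 and 1029.5) overlapped.

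Zic1 was the only one of the 5 genes with readings that were not well above background. Its signal was 18.7 to 29.5 in CONT, 28.1 and 32.0 in ME, and 19.7 and 23.1 in IE on slide 1, so that ME overlapped with CONT. On slide 2 it was 23.6 and 49.3 in ME and 17.1 and 35.9 in IE. Of its 4 readings on slide 2, both in Cy5 were well above background and both in Cy3 were not, and 1 IE reading on slide 1 was not either. All readings of Pcp2, Car8, Gdf10 and Cbln1 were well above background. Before correction, the signal over the local background ran from 10.9 to 40.6 for Gdf10 and from 2.91 to 8.48 for Pcp2. It ran only from 1.97 to 4.31 for Car8, 1.82 to 3.98 for Cbln1 and 1.44 to 2.66 for Zic1.

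**Figure D2:**
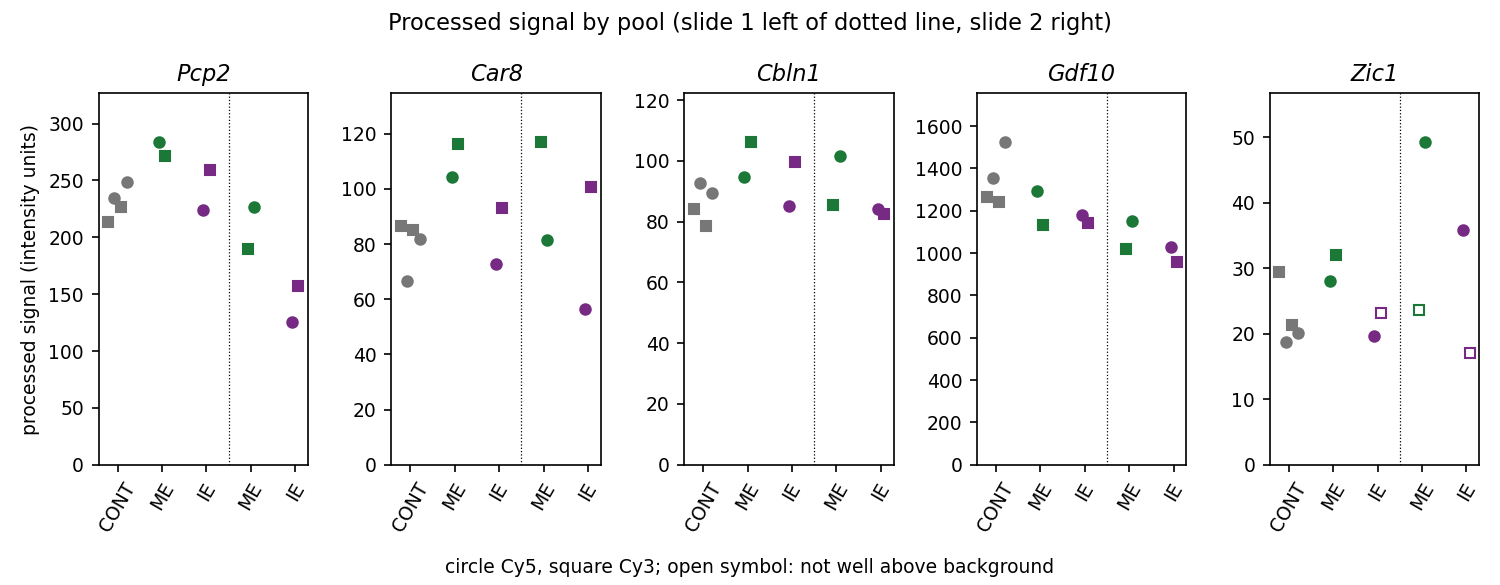
Processed signal in intensity units for each of the 5 genes, by pool, with slide 1 left of the dotted line and slide 2 right of it; each point is 1 reading (circle Cy5, square Cy3, open where not well above background). Both ME readings of Pcp2 (272 and 284) and of Car8 (104 and 116) on slide 1 lie above all CONT and IE readings. Signals are not scaled between arrays, and repeat readings of a pool are not replicates. The share of all probes with such an order was not worked out. The Zic1 readings of both pools in Cy3 on slide 2 are open.

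The gap between the arrays of a swap followed the dye for some genes. Car8 read higher on the array with the first pool in Cy3 in each comparison, by 0.53 in ME vs CONT, 0.41 in IE vs CONT and 1.36 in IE vs ME on the log2 scale. Gdf10 went the other way each time, with the array holding the first pool in Cy5 higher by 0.29, 0.34 and 0.28. For Car8 the gap was larger than that of 88.7%, 79.4% and 96.7% of bright probes.

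Zic1 changed its lean between slides, with the Cy3 array higher by 0.85 and 0.32 on slide 1 and the Cy5 array higher by 2.14 on slide 2. Pcp2 had gaps of 0.20, 0.077 and 0.068 and Cbln1 of 0.025, 0.042 and 0.28. The part of the dyes in the ratios of Car8 and Zic1 was not tested beyond the swap, which averages a constant dye effect out of the mean.

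IE and ME could also be compared through CONT on slide 1, as the difference between IE vs CONT and ME vs CONT. The same IE and ME pools were used on both slides, so the 2 estimates share their RNA and differ in hybridization, slide and software. Pcp2 was -0.29 ± 0.15 through CONT and -0.56 ± 0.048 directly. Car8 was -0.56 ± 0.48 and -0.38 ± 0.96.

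Zic1 was -0.31 ± 0.64 through CONT and -0.46 ± 1.51 directly, Gdf10 -0.13 ± 0.32 and -0.13 ± 0.19, and Cbln1 -0.048 ± 0.034 and -0.16 ± 0.20. Both estimates were below 0 for each of the 5 genes, though the direct one of Zic1 was 0.025 with normexp and 0.041 without background subtraction. Beyond its own SD on both slides stood Pcp2 alone. The genes were chosen on the ratios of both slides, so these signs and sizes support nothing. The share of all probes with the same behaviour was not worked out.

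**Figure D3:**
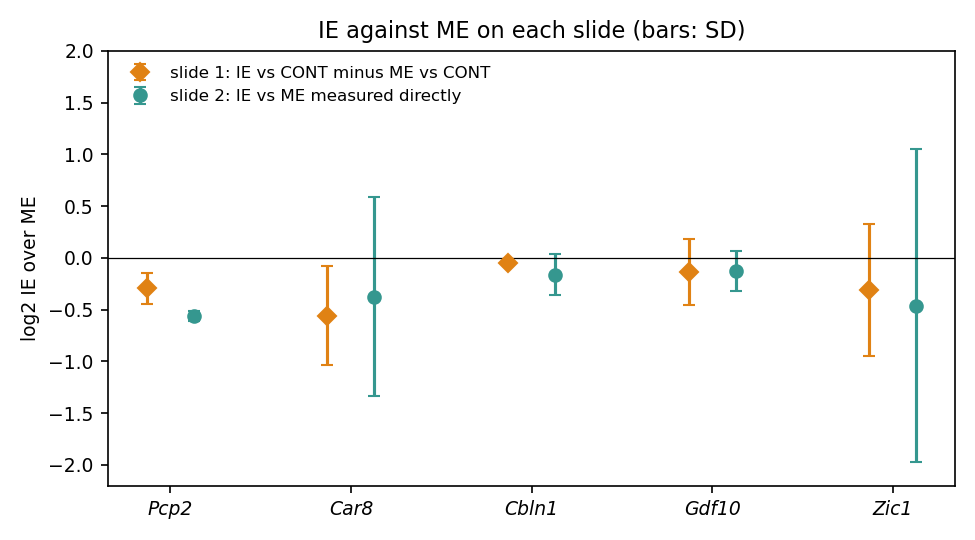
Log2 ratio of IE over ME for each of the 5 genes, as the difference of the ratios to CONT on slide 1 (diamonds) and as measured directly on slide 2 (circles), with SD bars from the spread between the arrays of each dye swap. All points lie below 0, and the bars of Pcp2 (-0.29 ± 0.15 and -0.56 ± 0.048) clear 0 on both slides. The genes were chosen on these ratios, so the figure is only a description.

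Other genes of the same cells gave the setting for the 5. Of 20 further Purkinje cell genes, 15 were found by array name with 24 probes, and 0 were called in any comparison. Their median log2 ratio was 0.010 in ME vs CONT, 0.0017 in IE vs CONT and -0.0070 in IE vs ME. In ME vs CONT, 19 of these 24 probes were well above background in all readings. The developmental regulators Lhx1 and Lhx5 were not well above background in any reading, while Calb1, a calcium buffer also made by hippocampal neurons, was well above it in all.

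Calb1 had 4 probes, with means of -0.011 to 0.026 in ME vs CONT and -0.090 to -0.026 in IE vs ME. Slc1a6, the glutamate transporter of Purkinje cells, read 0.094 ± 0.21 in ME vs CONT, -0.12 ± 0.021 in IE vs CONT and -0.20 ± 0.023 in IE vs ME. Its IE vs ME arrays both lay below 0, as those of Pcp2 did, with a smaller mean. Ppp1r17, a phosphatase inhibitor of Purkinje cells whose probe carries the older name Gsbs, was singled out after its values were seen. It read 0.77 and 0.67 in ME vs CONT, a mean of 0.72 ± 0.066, with software p-values of 0.0092 and 0.041 that left it uncalled. In IE vs CONT Ppp1r17 read -0.18 and 0.061, and in IE vs ME -0.63 and -0.076. In each of these comparisons 1 of 2 IE readings was not well above background.

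Among 18 granule cell genes, 11 were found by array name with 15 probes, and 1 was called, in ME vs CONT. It was Gabra6, the GABA-A receptor subunit of cerebellar granule cells, with log2 ratios of 2.92 and 2.64. Both Gabra6 readings of CONT in this comparison were not well above background, so the ME pool was at least 3.01-fold higher, with the CONT level set, on each array, to the lowest signal among probes well above background or to the probe's own where that was higher. The call ended with normexp, without background subtraction and with all 4 readings required well above background. The Gabra6 mean was then 0.23 with normexp and 0.34 without background subtraction, far under the bound, which holds only for the background-subtracted signals. In IE vs CONT both pools were not well above background. In IE vs ME the arrays read -1.72 and -3.22, IE was not well above background, and the IE pool was at least 1.81-fold lower, with 1 of 2 ME readings measured and no call.

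The granule cell median was 0.021 in ME vs CONT, 0.018 in IE vs CONT and -0.12 in IE vs ME. Zic2 read 0.21 and 0.18 in ME vs CONT and, like Zic1, lay far apart in IE vs ME, at 0.60 and -1.98. Zic4 had 2 probes with means of 0.073 ± 0.45 and 0.49 ± 0.035 in ME vs CONT, and of -0.71 ± 1.37 and -0.53 ± 0.76 in IE vs ME. As for Zic1, 1 or more readings of each Zic2 and Zic4 probe on slide 2 were not well above background. In ME vs CONT, 1 of 2 readings of either pool was not well above it for Zic2. For the Zic4 probe with the mean of 0.073, this held for 1 of 2 ME readings and for both CONT readings. The other Zic4 probe was well above background in all readings of ME vs CONT. No probe was found by array name for Cbln3.

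Of 8 further Bergmann glia genes, 6 were found with 10 probes, 0 were called, and the medians were -0.029, -0.025 and 0.038. Binding partners, relatives and signal mediators of the 5 proteins made up another list, of which 23 of 27 genes were found with 36 probes. None of them was called, and their medians were -0.0095, -0.038 and 0.019. Itpr1, the partner of Car8, had 2 probes with means of -0.084 and -0.010 in ME vs CONT.

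Markers of tissue next to the hippocampus were also followed. In the meninges list (13 of 16 genes, 17 probes), 11 probes were called higher in ME vs CONT, 0 were called in IE vs CONT and 9 were called lower in IE vs ME. Their medians were 0.90, -0.024 and -0.67, beside 0.33, -0.0012 and -0.42 for the 4 cerebellar markers found by array name. With 1 probe matched by gene ID added, the summed meninges signal was 39423 to 42548 in ME against 18013 to 18411 in CONT, and 16960 to 17380 in IE against 17516 to 18355 in CONT. The called probes belong to Ptgds, Ogn, Col1a1, Col1a2, Igf2, Igfbp2, Aldh1a2, Slc6a13 and Crabp2, which are known from meningeal fibroblasts and barrier cells, and all were well above background in both pools. The part of meningeal RNA in the ratios of the 5 genes was not tested.

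In the choroid plexus list (12 of 14 genes, 14 probes), 3 probes were called higher in ME vs CONT, 4 in IE vs CONT and 2 in IE vs ME. The medians were 0.13, 0.35 and 0.27, and the called genes were Ttr, Sostdc1, Kcnj13 and Otx2. No probe of the lists for thalamus (6 of 8 genes) and for hindbrain and midbrain (13 of 16 genes) was called. Of the genes typical of hippocampal neurons, 9 of 12 were found with 10 probes, all well above background in every reading of slide 1, and none was called.

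**Figure D4:**
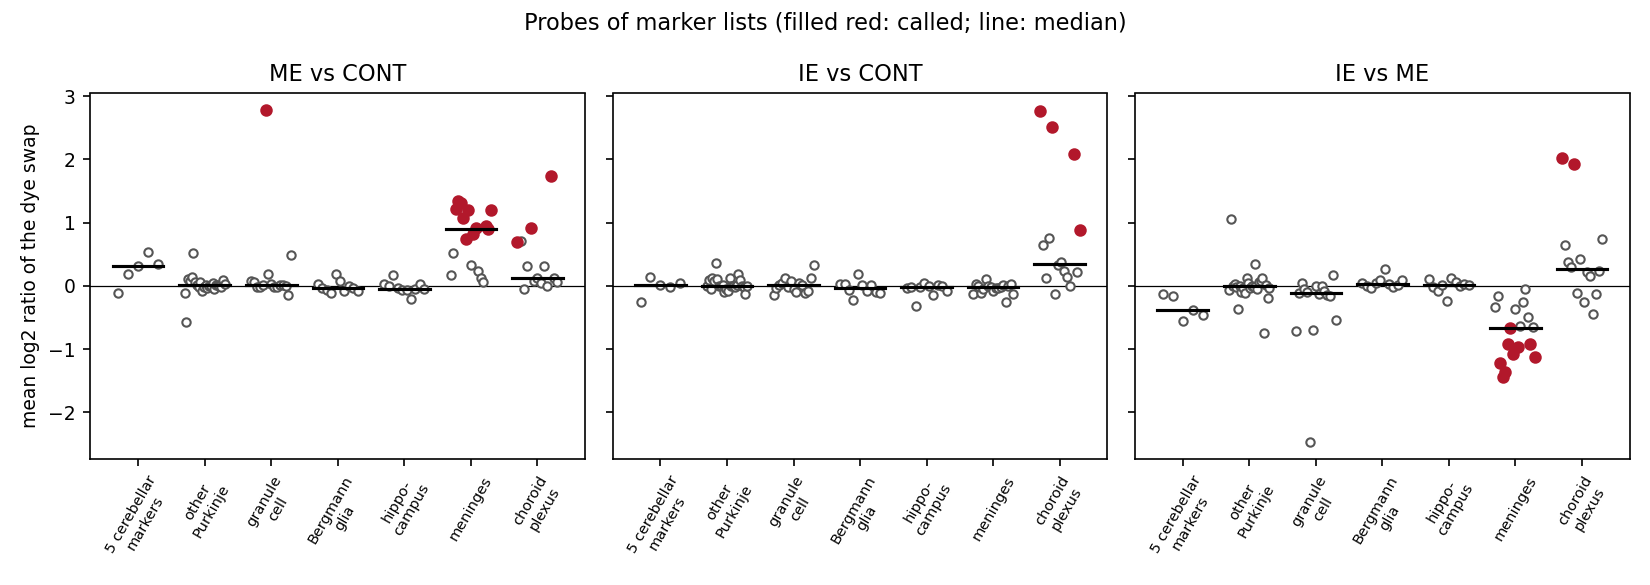
Mean log2 ratio of each probe of the 5 cerebellar markers, of lists of other Purkinje cell, granule cell and Bergmann glia genes, and of hippocampus, meninges and choroid plexus genes, in the 3 comparisons; filled red points are called and black lines are medians. The called cerebellar probe is Gabra6 in ME vs CONT, plotted at 2.78 over a CONT pool not well above background and at 0.23 with normexp or 0.34 without background subtraction (not plotted), and the meninges medians are 0.90, -0.024 and -0.67.

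Among named probes well above background in all ME readings, the pattern over the 6 arrays closest to the median of Pcp2, Car8 and Gdf10 was that of Cpxm1, with a root-mean-square difference of 0.11 on the log2 scale. Serpinf1 (0.11), Abca5 (0.11), Sfrp1 (0.11) and Thbd (0.12) followed, with differences too alike to be ordered. Cpxm1 had mean log2 ratios of 0.32 in ME vs CONT, -0.060 in IE vs CONT and -0.33 in IE vs ME. With 6 arrays of 3 pools, many probes can lie this close, and the list is only a description.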

How the data were processed

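Scanner files of 6 Agilent 60-mer arrays were analysed. They were made by the authors with Feature Extraction, version 9.5.3.1 on slide 1 and 11.0.1.1 on slide 2. The deposited log ratio is the log10 of Cy5 over Cy3 after background subtraction and LOWESS dye normalization. The deposited p-value comes from the error model of the software. The deposited processed signal is an intensity on a linear scale. The value table deposited by the authors holds log10 ratios of these signals, and served as an alternative.

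Control features and outlier spots were left out, spots of a probe were averaged, and ratios were turned to log2 of the first pool over the second. The sample records name the arrays of a swap as different pools, whereas the methods describe 1 pool a group, which was followed. The call takes its fold range and p limit from the methods, and no test across rats was made. What the ratios can say of rats is limited by the single pool of each group, of which the arrays are repeat hybridizations. In both channels, 66.5% to 74.4% of spots were well above background.

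The genes named were the 5 members, all called probes of the lists, Gabra6, Cbln3, Zic2, Zic4, Slc1a6, Itpr1 and Calb1, and the 5 probes of most similar pattern. Some other genes of this rule are not reported here. Ppp1r17, Lhx1, Lhx5 and Zic5 were named outside it, after their values were seen. Members and lists were chosen with earlier results of these data known. Older array names were matched by gene ID or RefSeq accession with the GRCr8 annotation as an alternative. The other alternatives were no p limit, 1.5-fold on each array, all 4 readings well above background, the value table, normexp (offset 50) with loess (limma 3.58.1 in R 4.3.3), loess without background subtraction, outlier spots kept, each array alone, and least squares over the 6 arrays with a dye term for each slide. The call was tested on simulated data.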

Additional observations from a re-analysis of the deposited data

Results flagged for a closer look

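Among the genes named, 2 had all ME vs CONT arrays above 0 and all IE vs CONT arrays below 0, and both belong to the meninges list. Ptgds had a mean log2 ratio of 1.34 in ME vs CONT and -0.11 in IE vs CONT, and Col1a1 1.19 and -0.024. The difference between the comparisons was not tested, and both share the CONT pool. None of the 5 cerebellar markers had this pattern.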

How the results depend on the processing

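No paired analysis was possible because a single pool stands for each group and its arrays are repeat hybridizations. The called cerebellar markers numbered 0 in each comparison without the p limit, with 1.5-fold on each array, with the value table, with normexp or no background subtraction, with outlier spots kept, and with widened names. With 1 array alone, they were 0 to 1 in ME vs CONT (Car8 without the first array), 0 to 0 in IE vs CONT and 1 to 2 in IE vs ME (Zic1 without the first array, Car8 and Pcp2 without the second), where single arrays called 1.58% to 2.14%, 1.43% to 1.85% and 7.73% to 7.87% of all probes. Called probes of other cerebellar genes in ME vs CONT were 0 with normexp, 0 without background subtraction, where Gabra6 had means of 0.23 and 0.34, and 0 with all 4 readings required well above background. They were 1 to 2 with 1 array alone (Gabra6 without the first, Gabra6 and Lhx5 without the second). Lhx5 was called lower in ME, at -2.40 on the first array against 1.24 on the second, and was not well above background. In IE vs ME the count was 1 (Gabra6) without the p limit, and 0 to 3 with 1 array alone (Gabra6, Zic2 and Zic4 without the first). With normexp and without background subtraction the median of the cerebellar markers fell in size to -0.15 and -0.13 in IE vs ME, and to 0.14 and 0.14 in ME vs CONT. With 1 array alone it was -0.39 to -0.29 in IE vs ME, 0.15 to 0.49 in ME vs CONT and -0.097 to 0.12 in IE vs CONT. With Cbln1, an alternative chosen after seeing the data, the medians were 0.31, 0.020 and -0.38. With the value table or outlier spots kept, the 30 values of single markers did not move by 0.0001 or more. The value table holds ratios of the same processed signals, and keeping outlier spots changed no marker value. Neither setting was therefore an independent check of the markers. Of 45 values under normexp, no background subtraction or least squares, 10 moved by 1 SD or more and 7 lay on the other side of 0. Pcp2 in IE vs ME moved by over 1 SD to -0.35, -0.32 and -0.47, and Zic1 ran from -0.46 to 0.041 there. Dim signals limit Zic1, which 3 of 12 readings did not place well above background.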
